A study of Homo sapiens with 15 samples.

Results

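Small nucleolar RNA (snoRNA) host genes are the loci described here, as 10 members found by their symbols: GAS5, SNHG1, SNHG5, SNHG6, SNHG7, SNHG8, SNHG12, SNHG15, SNHG16 and ZFAS1. They are 10 of 16109 genes listed in any of 3 deposited expression tables, and all 10 stand in all 3 tables. The study measured RNA in 2 human cell lines after 24 h of treatment, to ask how the small molecule MYCi975, an inhibitor of the transcription factor MYC, changes MYC target genes. PC3, a prostate cancer line labelled as having high endogenous MYC, received 8 µM MYCi975 (3 libraries) or DMSO as control (3 libraries). P493-6, a human B cell line with a MYC construct that tetracycline switches off (its label calls it a Burkitt lymphoma line with overexpressed MYC), received 6 µM MYCi975 (3 libraries), 0.1 µg/ml tetracycline (3 libraries) or DMSO as control (3 libraries). MYCi975 was dissolved in DMSO and tetracycline in water, so the P493-6 control matches the solvent of MYCi975 and not that of tetracycline. Each line stands for its cell type alone, the MYCi975 dose differed between the lines, and nothing in the labels tells whether the 3 libraries of a group are separate cultures, so p-values measure the spread between libraries, which may be technical.

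A snoRNA host gene is transcribed by RNA polymerase II, and the snoRNAs are cut from its introns after splicing. Box C/D snoRNAs guide 2'-O-methylation of ribosomal and spliceosomal RNA, and box H/ACA snoRNAs guide pseudouridylation. The spliced exons of these hosts have no known long protein product. Several begin with a 5' terminal oligopyrimidine (TOP) sequence, a C followed by a run of C and T, as mRNAs of ribosomal proteins do. TOP transcripts are held back from or released to ribosomes according to mTORC1 activity, and host RNAs that enter translation are degraded by nonsense-mediated decay, as is well described for GAS5, a transcript that accumulates in growth-arrested cells. By their best known guests, GAS5, SNHG1, SNHG5, SNHG6, SNHG16 and ZFAS1 are hosts of box C/D snoRNAs. SNHG7, SNHG8 and SNHG15 carry box H/ACA snoRNAs, and SNHG12 carries both kinds.

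In the hg38 coordinates of the tables, 2 members lie on chromosome 1, GAS5 at 173863900 to 173868882 and SNHG12 at 28578538 to 28582983, both on the minus strand. Others on the minus strand are SNHG1 (chr11:62851988-62855914), SNHG5 (chr6:85660950-85678736), SNHG7 (chr9:136721366-136728184) and SNHG15 (chr7:44983023-44986961). SNHG6 is on the minus strand too, and its coordinates are not given here. SNHG8 (chr4:118278709-118279823), SNHG16 (chr17:76557766-76565348) and ZFAS1 (chr20:49278178-49295738) are on the plus strand. The biotype deposited with the data is antisense for SNHG7, SNHG12 and ZFAS1, lincRNA for SNHG8 and SNHG15 and processed transcript for the other 5.

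The transcription starts are shown first because a TOP start is what these noncoding hosts are said to share with ribosomal protein genes. RefSeq windows (GRCh38.p14) were found for 8 of the 10 members, the exceptions being SNHG6 and SNHG15. Each window below runs from 40 bases before the annotated start to 20 bases from it, 5' to 3' on the gene's strand, and capitals mark the longest run of C and T that touches the 5 bases on either side of the start.
GAS5, chr1:173869026-173869085, minus strand: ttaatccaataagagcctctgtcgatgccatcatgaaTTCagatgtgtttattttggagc
SNHG1, chr11:62855866-62855925, minus strand: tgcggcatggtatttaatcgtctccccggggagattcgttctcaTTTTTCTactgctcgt
SNHG5, chr6:85678714-85678773, minus strand: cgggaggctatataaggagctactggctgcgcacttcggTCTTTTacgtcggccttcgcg
SNHG16, chr17:76557724-76557783, plus strand: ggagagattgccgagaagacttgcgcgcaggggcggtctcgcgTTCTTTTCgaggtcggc
ZFAS1, chr20:49278602-49278661, plus strand: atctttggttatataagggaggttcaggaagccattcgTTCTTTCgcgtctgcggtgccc
SNHG7, chr9:136728165-136728224, minus strand: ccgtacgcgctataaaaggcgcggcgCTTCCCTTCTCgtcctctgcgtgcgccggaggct
SNHG8, chr4:118278722-118278781, plus strand: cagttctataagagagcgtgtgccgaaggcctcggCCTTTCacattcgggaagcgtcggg
SNHG12, chr1:28581854-28581913, minus strand: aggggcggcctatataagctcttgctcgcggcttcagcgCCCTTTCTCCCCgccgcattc

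A C followed by at least 4 bases of C or T stood exactly at the RefSeq start of 3 of the 8 members, SNHG5, SNHG12 and ZFAS1. The same was true of 42 of 62 ribosomal protein genes (67.7%) and of 4.06% of 34943 RefSeq windows. Counted by where its C lies, such a motif began within 5 bases of the start, on either side, in 5 of the 8 members, with SNHG7 (C at position -1) and SNHG8 (C at position -4) added, in 79% of the ribosomal protein genes and in 19.6% of all windows. This count differs from the capitals above, which mark the longest run of C and T whatever its first letter. In SNHG16 the run begins at position 4 but its first C with 4 pyrimidines is at position 6, the run of SNHG1 has no C followed by 4 pyrimidines, and in SNHG7 the motif lies in a shorter run than the one in capitals. The RefSeq start is not the only one annotated. RefSeq starts also departed from the first base of the gene in the deposited tables. Counted from that base, with a minus sign for downstream, they stood at -1110 for SNHG12, -464 for ZFAS1, -53 for SNHG8 and -29 for SNHG1. SNHG5 stood at -3, SNHG7 at 0 and SNHG16 at 2. The GAS5 start in RefSeq lay 163 bases before the first base of the gene in the deposited tables. In the GENCODE v29 annotation, 6 of 29 GAS5 transcripts begin at 1 common position downstream of both, with a C and 5 further pyrimidines. Over all 10 members, 23 of 136 GENCODE v29 transcripts (16.9%) began with a C and 4 pyrimidines, beside 20.4% of 804 transcripts of ribosomal protein genes and 2.41% of all 206694 transcripts. Beside GAS5, these were 3 of 5 transcripts of SNHG6, 3 of 10 of ZFAS1, 2 of 8 of SNHG16, 4 of 17 of SNHG12, 1 of 5 of SNHG8, 3 of 23 of SNHG5 and 1 of 25 of SNHG1, with none of 4 for SNHG7 and none of 10 for SNHG15. The first 30 bases from the most used GAS5 start and from the start of an SNHG15 transcript are shown, with capitals on an opening run of at least 5 bases of C and T.
GAS5 transcript start, chr1:173867960-173867989, minus strand: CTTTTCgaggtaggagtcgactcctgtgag
SNHG15 transcript start, chr7:44986608-44986637, minus strand: agacctgtactccgtactccgtacttcgta

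A further feature was seen after the sequences were read and is given as a description. The letters TATA, on the gene's strand, began and ended within 40 to 20 bases before the RefSeq start in 5 of the 8 members (SNHG5, SNHG7, SNHG8, SNHG12 and ZFAS1), in 14.5% of the ribosomal protein genes and in 5.91% of all windows. These are the 5 members in which a C and 4 pyrimidines began within 5 bases of the start. CACGTG, the core motif bound by MYC with MAX and identical on both strands, was present between 250 bases before and 50 bases after the start in 1 of the 8 members, SNHG7, and in 7.23% of all windows. In the SNHG7 stretch below the motif is in capitals, and it begins at position -122.
SNHG7 upstream, chr9:136728289-136728318, minus strand: ctgagcagcgccCACGTGcgggcgcgggga

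The libraries held between 8162582 and 15926008 counted reads, and a member had between 59 reads (SNHG5) and 5627 reads (SNHG16) in a library. Values are reads per 1000000 counted reads of a library (CPM), a relative measure. A rise or fall is thus a change in a gene's share of the reads. It does not give the change in amount per cell, which can differ in size or direction. Probes of the library kit pull down annotated exons, so CPM is compared for 1 gene across libraries and not between genes. MYC transcripts ranged from 145 to 152 CPM in tetracycline libraries and from 4692 to 4791 CPM in P493-6 control libraries. With MYCi975, MYC ranged from 5084 to 5138 CPM in P493-6 and from 359 to 386 CPM in PC3, where the control had 300.4 to 309 CPM. All 8 B cell markers were listed in P493-6 and 1 of 8 in PC3 (CD74, below 5 CPM in each library), and all 6 epithelial markers were listed in PC3. Of those 6, P493-6 listed EPCAM at a mean of 13.8 CPM with MYCi975, 1.84 CPM with tetracycline and 11.2 CPM in control, and, in the tetracycline table, KRT19 at 0.579 CPM with tetracycline, and the part of such transcripts in the results below was not tested.

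The lines differed in the members' starting levels. SNHG16 averaged 353 ± 3.07 CPM in PC3 control and 141 ± 7.49 CPM in P493-6 control (SD, n = 3 each). GAS5 stood the other way round, at 14.9 ± 0.815 CPM in PC3 control and 143 ± 12.9 CPM in P493-6 control. Of the 10 members, SNHG16 alone was higher in every PC3 control library than in every P493-6 control library, 8 members were lower in every PC3 control library, and ZFAS1 overlapped at 51.3 ± 3.11 CPM in PC3 control and 58.7 ± 4.99 CPM in P493-6 control. These levels are a description across lines processed in separate tables. The share of all genes whose control libraries were apart between the lines was not computed. The counts above are therefore not read as a trait of the members.

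Over all 5 groups, the order of levels differed between members. GAS5, SNHG1, SNHG5, SNHG6, SNHG7, SNHG8 and SNHG12 had their 3 highest means in the 3 P493-6 groups. The gap to PC3 was wide for GAS5 and SNHG7. For SNHG7 the PC3 means were 14.5 CPM with MYCi975 and 13.4 CPM in control. The lowest P493-6 mean of SNHG7 was 75.0 CPM, with tetracycline. SNHG15 had its lowest mean, 8.56 CPM, with tetracycline in P493-6, overlapping in range with the 12.3 CPM of MYCi975 in PC3, which in turn overlapped with PC3 control. SNHG16 likewise had its lowest mean with tetracycline, 24.4 CPM, apart from every other group. For ZFAS1 the order was MYCi975 in P493-6, MYCi975 in PC3, tetracycline, P493-6 control and PC3 control, and among neighbours in it only tetracycline (66.0 CPM) and P493-6 control (58.7 CPM) had ranges that did not overlap. SNHG6 had its highest mean with tetracycline (52.4 CPM) and its lowest in PC3 control (27.9 CPM), and its 3 P493-6 groups overlapped from neighbour to neighbour. SNHG8 alone had no overlap between any neighbours in its order. SNHG1, SNHG5 and SNHG12 had their highest mean in P493-6 control and their lowest in a PC3 group. The shares of all genes with such orders, or with no overlap between neighbours, were not computed. These orders are therefore not read as a trait of the members.

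**Figure D1:**
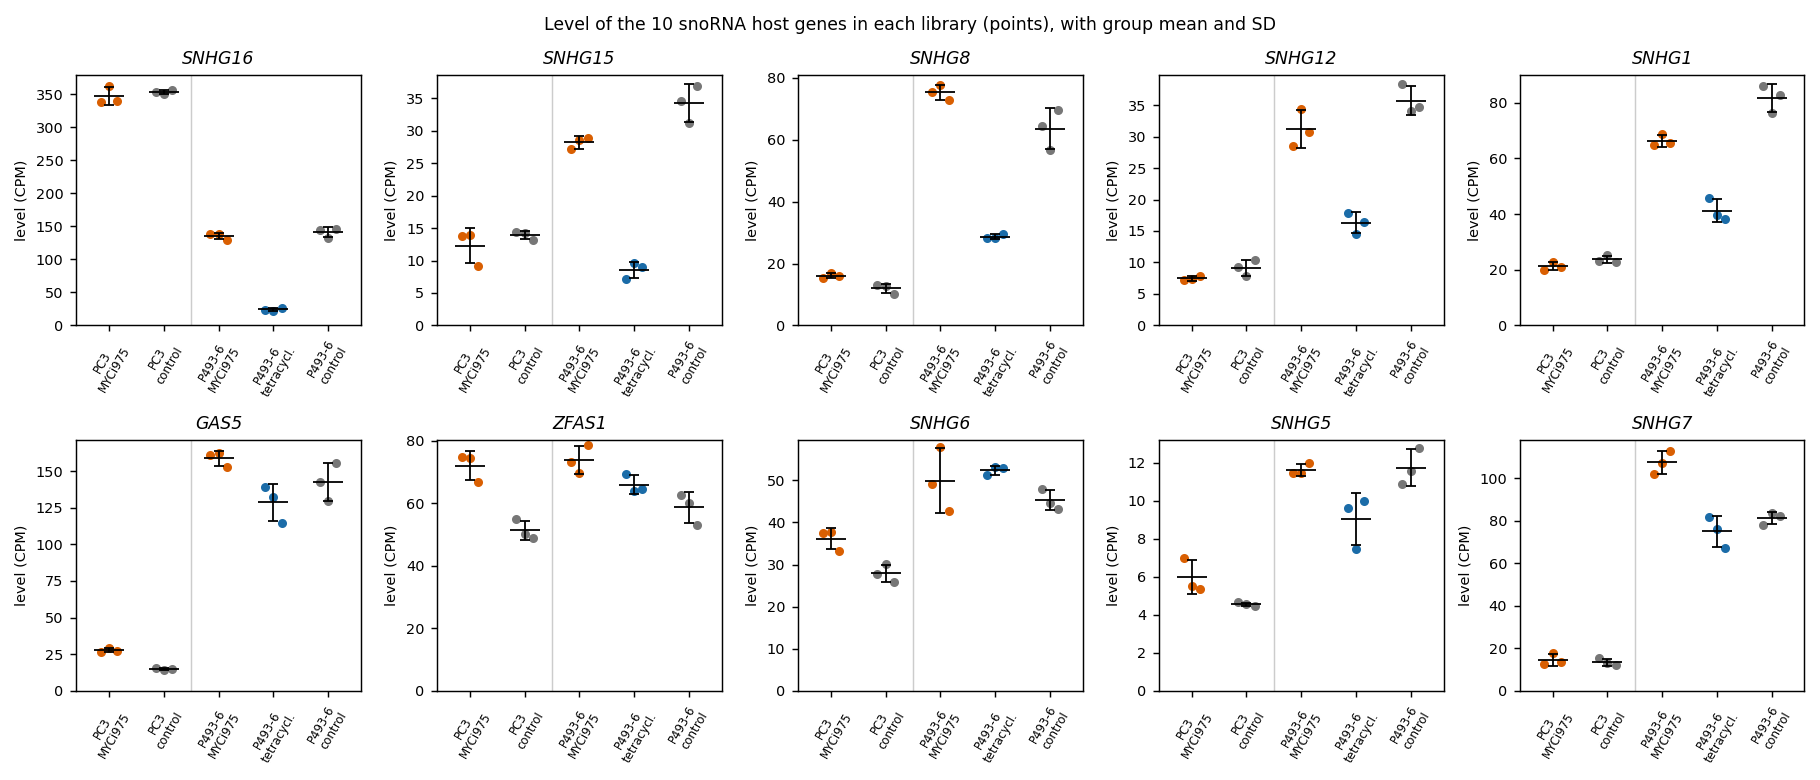
Level in CPM (vertical axes, linear and starting at 0, scaled per gene) of the 10 host genes in each of the 15 libraries, in 2 PC3 groups left of the grey line and 3 P493-6 groups right of it. Points are libraries, and bars are the group mean with SD (n = 3). SNHG16 is highest in PC3 and falls to 24.4 CPM with tetracycline, whereas ZFAS1 stays between 48.9 and 78.8 CPM in all libraries.

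In PC3, MYCi975 left 5 host genes higher and none lower, led by GAS5. A gene was called changed at a Benjamini-Hochberg adjusted p below 0.05 over all genes of a table, from limma's moderated test on log2(CPM + 1), and log2 changes are on that scale. By this rule 59.2% of all PC3 genes were called, 29.0% as higher and 30.1% as lower. Among the 971 genes with a long noncoding biotype, 22.5% were higher and 11.6% lower. These shares are not matched to the members in level. In a fit limited to the 10668 genes with a mean of at least 5 CPM, 3390 were higher and 3794 lower. The 5 called members were GAS5, ZFAS1, SNHG8, SNHG6 and SNHG5, and they were also the 5 whose treated libraries did not overlap the control libraries, which was so for 61.9% of all genes. The median change of the 10 members was 0.21 on the log2 scale, beside -0.00 over all 13751 genes.

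Among the box C/D hosts in PC3, GAS5 had 26.7, 29.3 and 27.1 CPM with MYCi975, against 15.8, 14.2 and 14.8 CPM in control. Every treated library was above every control library, and the log2 change was 0.85 ± 0.08 (SE, limma adjusted p = 1.48e-16). ZFAS1, the antisense transcript at the start of ZNFX1, had 74.8, 74.6 and 66.9 CPM with MYCi975, against 54.8, 50.2 and 48.9 CPM in control. Its groups were apart as well, with a log2 change of 0.48 ± 0.05 (SE, limma adjusted p = 2.40e-13). SNHG6, host of SNORD87, had 37.6, 37.6 and 33.2 CPM with MYCi975, against 27.8, 30.05 and 26.0 CPM in control, a log2 change of 0.36 ± 0.07 (SE, limma adjusted p = 2.91e-06). The groups of SNHG6 did not overlap. SNHG5, the U50 host, had 7.0, 5.53 and 5.37 CPM with MYCi975, against 4.65, 4.54 and 4.48 CPM in control. It rose by 0.32 ± 0.14 on the log2 scale (SE, limma adjusted p = 0.0368), and the call was lost when MYCi975 replicate 1, its highest library, was left out (0.22, limma adjusted p = 0.232) or when any 1 control library was (adjusted p between 0.0576 and 0.0761).

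Of the hosts of box H/ACA guests in PC3, SNHG8 alone passed the test. SNHG8, host of SNORA24, had 15.3, 16.8 and 16.0 CPM with MYCi975, against 13.0, 12.6 and 10.2 CPM in control, and rose by 0.40 ± 0.10 on the log2 scale (SE, limma adjusted p = 0.000187). The other 5 members of PC3 did not pass. SNHG16 averaged 347 ± 13.4 CPM with MYCi975 and 353 ± 3.07 CPM in control, with a log2 difference of -0.03 and a 95% interval from -0.09 to 0.04. SNHG1, the U22 host, averaged 21.3 ± 1.5 CPM with MYCi975 and 23.7 ± 1.33 CPM in control (log2 difference -0.15, limma adjusted p = 0.0890). SNHG12 had a log2 difference of -0.25 (limma adjusted p = 0.0616), SNHG15 one of -0.19 (limma adjusted p = 0.132) and SNHG7 one of 0.09 (limma adjusted p = 0.447). Each of SNHG1, SNHG12 and SNHG15 passed, as lower, when 1 particular library was left out: SNHG1 at -0.20 and SNHG15 at -0.28 without MYCi975 replicate 2, SNHG15 at -0.27 without MYCi975 replicate 1, and SNHG12 at -0.35 without control replicate 2.

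In P493-6, MYCi975 left 4 host genes higher and 2 lower, and all 6 changes were at most 0.40 on the log2 scale in size. SNHG7 rose most and SNHG1 fell most. In a fit limited to the 9950 genes with a mean of at least 5 CPM, 1291 were higher and 2298 lower. Of all 12998 genes in this table, 28.6% were called, 10.6% as higher and 18.0% as lower. Among the 1079 with a long noncoding biotype, 4.17% were higher and 7.69% lower. The split depends on scaling: with TMM factors, which set the bulk of genes level between libraries, 1819 genes were higher and 1690 lower, in place of 1375 higher and 2338 lower, while the members stayed at 4 higher and 2 lower. The median change was 0.06 for the members and -0.04 for all genes.

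SNHG7 had 102, 107 and 113 CPM with MYCi975, against 77.8, 83.4 and 82.5 CPM in P493-6 control. The groups were well apart, and the log2 change was 0.40 ± 0.05 (SE, limma adjusted p = 7.81e-08). ZFAS1 had 73.2, 69.7 and 78.8 CPM with MYCi975, against 62.7, 60.2 and 53.1 CPM in control, a log2 change of 0.33 ± 0.06 (SE, limma adjusted p = 5.0e-05). SNHG8 had 75.5, 77.6 and 72.9 CPM with MYCi975, against 64.5, 56.6 and 69.6 CPM in control, a log2 change of 0.25 ± 0.06 (SE, limma adjusted p = 0.00176). Both were apart from their controls, although the SNHG8 call was lost without control replicate 2 (0.17, limma adjusted p = 0.0609). GAS5 had 161, 162 and 153 CPM with MYCi975, against 143, 129.9 and 156 CPM in control. These GAS5 groups overlapped, and the log2 change of 0.15 ± 0.05 (SE, limma adjusted p = 0.0192) lost its call in 3 of the fits that left out 1 library: without control replicate 2 it was 0.09 (limma adjusted p = 0.261), and without MYCi975 replicate 1 or 2 it was 0.14 (adjusted p = 0.0731 and 0.0845). It was also lost in the fit of all 9 P493-6 libraries (adjusted p = 0.0707).

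SNHG1 and SNHG15 were the P493-6 members that fell with MYCi975. SNHG1 had 64.8, 68.9 and 65.5 CPM with MYCi975, against 86.2, 76.3 and 82.9 CPM in control, a log2 change of -0.30 ± 0.06 (SE, limma adjusted p = 7.24e-05). SNHG15, host of SNORA9, had 27.1, 28.6 and 28.9 CPM with MYCi975, against 34.6, 31.1 and 36.9 CPM in control. Its groups did not overlap either, with a log2 change of -0.27 ± 0.08 (SE, limma adjusted p = 0.00806), and the call was lost without control replicate 3 (-0.21, adjusted p = 0.0719). In all, 5 members had groups that did not overlap, against 40.0% of all genes. SNHG12 averaged 31.2 ± 3.02 CPM with MYCi975 and 35.7 ± 2.28 CPM in control (log2 difference -0.19, limma adjusted p = 0.0634), and passed as lower without MYCi975 replicate 2 (-0.26, adjusted p = 0.0212). SNHG16 averaged 135 ± 5.0 CPM with MYCi975 and 141 ± 7.49 CPM in control, with a log2 difference of -0.06 and a 95% interval from -0.15 to 0.04. SNHG5 had a log2 difference of -0.01 (95% interval -0.23 to 0.22). SNHG6 averaged 49.9 ± 7.73 CPM with MYCi975 and 45.3 ± 2.42 CPM in control. Its 3 treated libraries, at 49.2, 58.0 and 42.6 CPM, were the most scattered of any SNHG6 group, and the log2 difference of 0.13 did not pass (limma adjusted p = 0.233) unless the lowest of them, replicate 3, was left out (0.23, adjusted p = 0.0164).

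**Figure D2:**
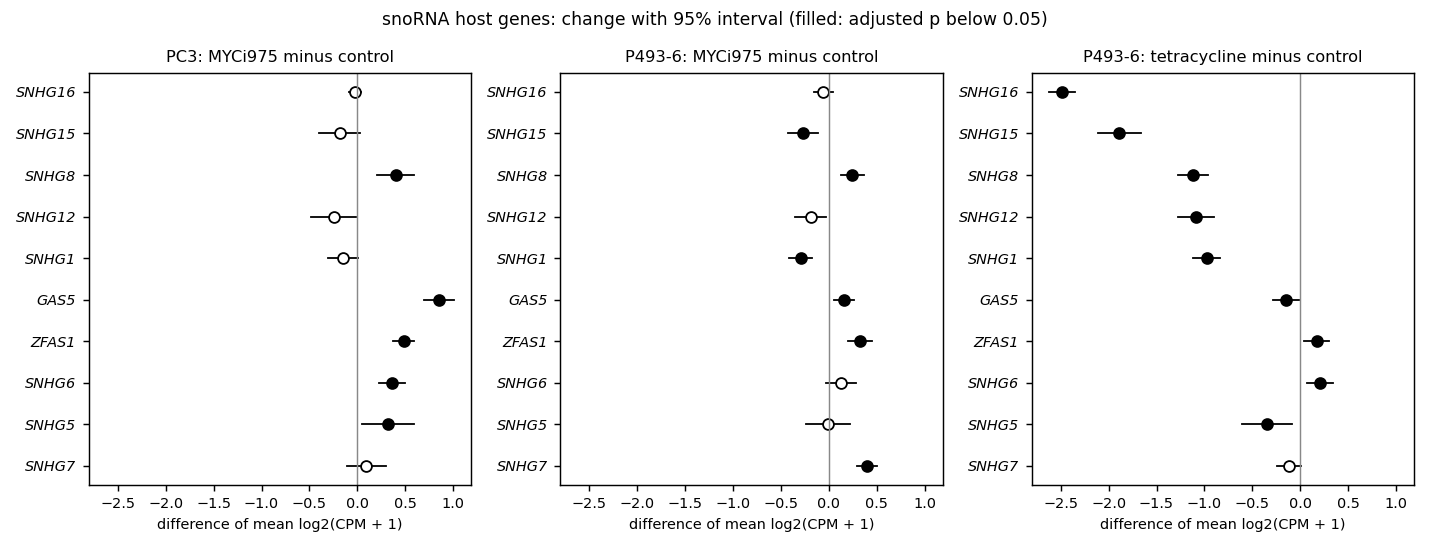
Log2(CPM + 1) change (horizontal axes, shared scale) of each host gene for MYCi975 in PC3, MYCi975 in P493-6 and tetracycline in P493-6, each minus its control, with 95% intervals (n = 3 libraries a group). Filled points have a limma adjusted p below 0.05. The MYCi975 changes lie between -0.30 and 0.85, and the tetracycline changes between -2.48 and 0.21.

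The change with MYCi975 was then set between the lines in a single fit of 12 libraries, as the change in PC3 minus the change in P493-6, bearing in mind that PC3 received 8 µM and P493-6 received 6 µM. GAS5 was the single member called: its change was larger in PC3 by 0.70 ± 0.09 on the log2 scale (SE, limma adjusted p = 3.18e-08). Over all 11240 genes in both tables, 36.3% were called, 18.1% as larger in PC3 and 18.2% as smaller. No fit that left out 1 library took the GAS5 call away, with values from 0.63 to 0.76. SNHG7 came next in the other direction, at -0.30 (95% interval -0.59 to -0.02), with a limma adjusted p of 0.0878. SNHG7 was called, at -0.31, with a pseudocount of 5 CPM (limma adjusted p = 0.0217) and, at -0.33, by edgeR on the reads behind the CPM values (edgeR adjusted p = 0.0293). It was also called without PC3 control replicate 3 (-0.38, limma adjusted p = 0.0335) or PC3 MYCi975 replicate 2 (-0.44, limma adjusted p = 0.00190). For ZFAS1 the lines differed by 0.15 (95% interval -0.03 to 0.33), for SNHG8 by 0.15 (-0.08 to 0.39) and for SNHG16 by 0.03 (-0.09 to 0.15). ZFAS1 passed, at 0.22, without P493-6 control replicate 3 (limma adjusted p = 0.0465), and SNHG6 passed, at 0.34, without P493-6 MYCi975 replicate 2 (limma adjusted p = 0.0132).

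With tetracycline in P493-6, 7 host genes fell, 2 rose and SNHG7 did not pass the test. SNHG16 fell most, followed by SNHG15, SNHG8, SNHG12 and SNHG1. Of all 13703 genes in this table, 78.1% were called, 41.9% as lower and 36.2% as higher. This split depends on scaling too. With TMM scaling 5367 genes were lower and 5382 higher, in place of 5745 lower and 4957 higher. The median over all genes was then 0.02, and 5 members were lower and 2 higher. Among the 1279 genes with a long noncoding biotype, 24.0% were lower and 38.5% higher, without matching for level. In a fit limited to the 10195 genes with a mean of at least 5 CPM, 4972 were lower and 3618 higher. The median of that fit was -0.15 on the log2 scale, and 6 members were lower and 2 higher in it. The groups did not overlap for 8 of 10 members, against 78.4% of all genes. The median change of the members was -0.66 on the log2 scale, beside -0.05 for all genes. The summed level of the 10 members was 450.3 ± 22.6 CPM with tetracycline and 696 ± 31.2 CPM in control (SD, n = 3 each). This sum is weighted towards members with many reads. SNHG16 alone averaged 24.4 CPM with tetracycline and 141 CPM in control.

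SNHG16, host of the SNORD1 snoRNAs, had 24.1, 22.4 and 26.8 CPM with tetracycline, against 145, 132 and 145 CPM in P493-6 control. The highest tetracycline library was far below the lowest control library, and the log2 change was -2.48 ± 0.07 (SE, limma adjusted p = 7.81e-30). Only 177 of the 13703 genes, 1.29%, changed by that much or more in the same direction. SNHG1 had 45.9, 39.6 and 38.1 CPM with tetracycline, against 86.2, 76.3 and 82.9 CPM in control, and fell by 0.98 ± 0.07 on the log2 scale (SE, limma adjusted p = 6.69e-16). SNHG5 had 9.64, 7.47 and 10.0 CPM with tetracycline, against 10.9, 11.5 and 12.8 CPM in control, close together but not overlapping. Its log2 change of -0.35 ± 0.13 (SE, limma adjusted p = 0.0148) was not called with TMM scaling (-0.28, adjusted p = 0.0513), nor without control replicate 3 (-0.29, limma adjusted p = 0.0776) or tetracycline replicate 2 (-0.23, adjusted p = 0.118).

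GAS5 had 139, 132 and 115 CPM with tetracycline, against 143, 129.9 and 156 CPM in control. The groups overlapped, and the log2 change of -0.15 ± 0.07 was near the threshold (SE, limma adjusted p = 0.0474). This GAS5 call was lost in 9 alternatives, among them TMM scaling (-0.07, adjusted p = 0.358), a pseudocount of 0.1 CPM (adjusted p = 0.0630) and leaving out tetracycline replicate 3 (-0.07, adjusted p = 0.304) or control replicate 3 (-0.09, adjusted p = 0.238). The same held without control replicate 1 (adjusted p = 0.121) or tetracycline replicate 2 (adjusted p = 0.0594).

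The box C/D hosts SNHG6 and ZFAS1 were the 2 members that rose with tetracycline. SNHG6 had 51.2, 53.2 and 53.0 CPM with tetracycline, against 48.0, 44.6 and 43.3 CPM in control, a log2 change of 0.21 ± 0.07 (SE, limma adjusted p = 0.00599). ZFAS1 had 69.3, 64.0 and 64.7 CPM with tetracycline, against 62.7, 60.2 and 53.1 CPM in control. The ZFAS1 groups were narrowly apart, and the log2 change of 0.17 ± 0.07 (SE, limma adjusted p = 0.0194) was lost without control replicate 3 (0.10, limma adjusted p = 0.187) or tetracycline replicate 1 (0.13, limma adjusted p = 0.0955).

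Of the 4 hosts with box H/ACA guests, 3 fell with tetracycline. SNHG15 had 7.12, 9.56 and 8.99 CPM with tetracycline, against 34.6, 31.1 and 36.9 CPM in control, and its log2 change of -1.89 ± 0.11 (SE, limma adjusted p = 7.51e-19) was second to that of SNHG16. SNHG8 had 28.1, 28.3 and 29.5 CPM with tetracycline, against 64.5, 56.6 and 69.6 CPM in control, a log2 change of -1.12 ± 0.08 (SE, limma adjusted p = 1.08e-16). SNHG12 had 17.9, 14.6 and 16.5 CPM with tetracycline, against 38.3, 34.1 and 34.7 CPM in control, a log2 change of -1.09 ± 0.09 (SE, limma adjusted p = 1.27e-13). In all of SNHG15, SNHG8 and SNHG12 the groups were apart. SNHG7 was the exception, with 81.7, 76.0 and 67.4 CPM with tetracycline against 77.8, 83.4 and 82.5 CPM in control. Its groups overlapped, and the log2 difference of -0.12 (95% interval -0.24 to 0.01) did not pass (limma adjusted p = 0.0862), although it did without control replicate 1 (-0.15, adjusted p = 0.0472) or tetracycline replicate 1 (-0.18, adjusted p = 0.0146).

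Set against the start sequences above, the 5 members in which a C and 4 pyrimidines began within 5 bases of the RefSeq start had these tetracycline changes: ZFAS1 at 0.17, SNHG7 at -0.12, SNHG5 at -0.35, SNHG12 at -1.09 and SNHG8 at -1.12 on the log2 scale. The 3 members with a window but no such motif there were GAS5 at -0.15, SNHG1 at -0.98 and SNHG16 at -2.48. The 2 with no window were SNHG6 at 0.21 and SNHG15 at -1.89. This grouping follows the RefSeq start alone, and GENCODE v29 starts would group the members otherwise. There the motif opened 6 of 29 GAS5, 2 of 8 SNHG16, 1 of 25 SNHG1 and 3 of 5 SNHG6 transcripts. It opened 0 of 4 SNHG7 transcripts. Among the 8 members with a window, SNHG7 alone held CACGTG. Its tetracycline difference did not pass with all libraries, but did without control replicate 1 or tetracycline replicate 1. A link between a start sequence or CACGTG and the tetracycline change was not tested.

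MYCi975 and tetracycline were compared directly in P493-6, since their comparisons with control share the same 3 control libraries. All members but SNHG6 were higher with MYCi975 than with tetracycline, so 9 of 10 were called higher and none lower. Among the 12860 genes in both P493-6 tables, 76.2% were called, 42.3% as higher and 33.9% as lower. With TMM scaling 4884 genes were higher and 4929 lower, in place of 5438 higher and 4356 lower. The median over all genes was then -0.01, and 7 members were higher and 1 lower. Among the 1038 genes with a long noncoding biotype, 22.2% were higher and 32.6% lower, without matching for level. In a fit limited to the 10148 genes with a mean of at least 5 CPM, 4855 were higher and 3553 lower, with a median of 0.14. The member groups did not overlap in 9 cases, against 76.9% of all genes. The median difference of the members was 0.60 on the log2 scale, beside 0.08 for all genes.

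SNHG16 had 139, 138 and 129.7 CPM with MYCi975, against 24.1, 22.4 and 26.8 CPM with tetracycline, a log2 difference of 2.43 ± 0.06 (SE, limma adjusted p = 1.71e-36). SNHG15 averaged 28.2 ± 0.945 CPM with MYCi975 and 8.56 ± 1.28 CPM with tetracycline (log2 difference 1.62, limma adjusted p = 3.05e-20). SNHG8 averaged 75.3 ± 2.35 CPM with MYCi975 and 28.6 ± 0.755 CPM with tetracycline (log2 difference 1.36, limma adjusted p = 9.28e-24). Those 3 members were separated by more than 1 on the log2 scale, and the others by less. SNHG12 differed by 0.89 (limma adjusted p = 1.06e-12), SNHG1 by 0.68 (limma adjusted p = 3.67e-13), SNHG7 by 0.52 (limma adjusted p = 8.47e-11) and GAS5 by 0.30 (limma adjusted p = 9.01e-05). SNHG5 differed by 0.34 (limma adjusted p = 0.0117) and ZFAS1 by 0.16 (limma adjusted p = 0.0218), and with TMM scaling neither was called (adjusted p = 0.0662 and 0.398). SNHG6 averaged 49.9 ± 7.73 CPM with MYCi975 and 52.4 ± 1.09 CPM with tetracycline, a log2 difference of -0.08 (95% interval -0.23 to 0.07). With TMM scaling SNHG6 was called lower with MYCi975, at -0.18 (adjusted p = 0.0306).

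**Figure D3:**
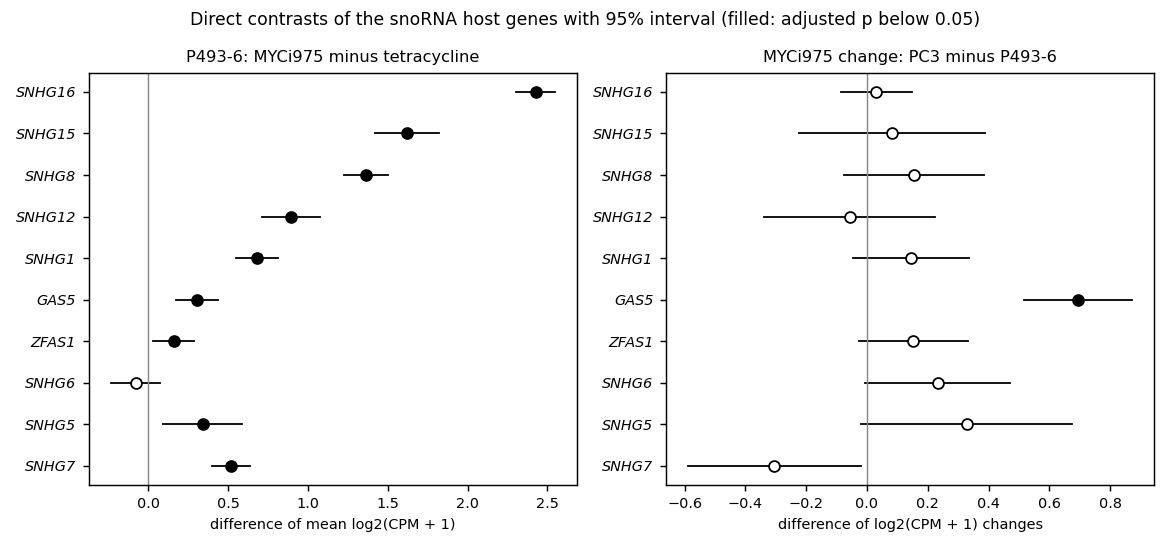
Log2 differences of the host genes with 95% intervals (horizontal axes, a separate scale in each panel), for MYCi975 minus tetracycline in P493-6 (left, 9 libraries in the fit) and for the MYCi975 change in PC3 minus that in P493-6 (right, 12 libraries). Filled points have a limma adjusted p below 0.05: all but SNHG6 on the left, and GAS5 alone, at 0.70, on the right.

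Members resembled each other to different degrees. Over the 5 group means of log2(CPM + 1), centred within each line, SNHG1 and SNHG12 were the closest pair (Euclidean distance 0.17), followed by SNHG6 and ZFAS1 (0.20). Among the 9776 genes listed in all tables at a mean of at least 5 CPM, the 3 nearest to SNHG16 were TMEM120B (0.03), NPM3 (0.04) and CAMKK2 (0.04), whose tetracycline changes were -2.49, -2.49 and -2.52 on the log2 scale. GAS5 was nearest to CLCN6 (0.04), CCNB1IP1 (0.06) and MAN2A1 (0.08), which differed by 0.89, 0.83 and 0.79 with MYCi975 in PC3. ZFAS1 was nearest to LEMD2 (0.02), ST3GAL3 (0.03) and IFRD1 (0.07). SNHG7 was nearest to EEF1B2 (0.05), a translation elongation factor with a TOP mRNA, to EEF1B2P3 (0.06), a pseudogene of it that can share its reads, and to LHFPL2 (0.06). With 5 group means a small distance is a description of these libraries.

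The counts in the related lists that follow are to be read beside the shares over all genes, of which 29.0% rose and 30.1% fell with MYCi975 in PC3, 10.6% rose and 18.0% fell with MYCi975 in P493-6, and 36.2% rose and 41.9% fell with tetracycline. The other noncoding snoRNA hosts were measured in smaller number. With tetracycline, 6 of 7 listed fell and none rose, with a median of -0.77 on the log2 scale. DANCR had 25.4 ± 1.69 CPM with tetracycline and 163 ± 4.42 CPM in control (log2 change -2.64, limma adjusted p = 8.23e-32). SNHG17 fell by 2.40 on the log2 scale (limma adjusted p = 1.30e-24) and SNHG11 by 1.02 (limma adjusted p = 1.44e-06). With MYCi975 in P493-6, SNHG3 rose by 0.20 (limma adjusted p = 7.36e-05), DANCR fell by 0.23 (limma adjusted p = 0.000177) and the other 5 of 7 did not pass. In PC3, 2 of 9 rose and 3 fell with MYCi975, with SNHG18 at 0.58 (limma adjusted p = 7.25e-05), EPB41L4A-AS1 at 0.43 (limma adjusted p = 0.000240) and SNHG10 at -0.89 (limma adjusted p = 2.31e-11).

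The proteins that bind snoRNAs were read beside their hosts. All 8 core proteins of the snoRNA particles, in both box classes, fell with tetracycline, with a median of -2.10 on the log2 scale. NOP56, a core protein of box C/D particles, had 74.1 ± 1.75 CPM with tetracycline and 439 ± 25.7 CPM in control (log2 change -2.55, limma adjusted p = 1.53e-35). DKC1, the pseudouridine synthase of box H/ACA particles, and its partner NHP2 fell by 2.47 and 2.43 on the log2 scale (limma adjusted p = 3.50e-34 and 3.36e-33). With MYCi975, 4 of the 8 fell and 1 rose in PC3, led by NOP58 at -0.75 (limma adjusted p = 9.83e-18) and followed by NOP56 at -0.64 (limma adjusted p = 5.20e-32) and DKC1 at -0.31 (limma adjusted p = 4.65e-12). In P493-6, 7 of 8 fell with MYCi975, among them NOP56 at -0.38 (limma adjusted p = 8.56e-10), NOP10 at -0.28 (limma adjusted p = 0.00653) and GAR1 at -0.26 (limma adjusted p = 0.0408).

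Assembly factors of the particles fell as well. Of 12 measured, 10 fell and none rose with tetracycline, with a median of -1.84 on the log2 scale, and NOLC1, a nucleolar phosphoprotein, fell by 2.96, the helicase RUVBL1 by 2.57 and NAF1, which loads box H/ACA particles, by 2.30 (limma adjusted p = 2.32e-23, 7.05e-33 and 5.47e-22). With MYCi975, 11 of 12 fell in PC3 (median -0.33) and 8 of 12 in P493-6 (median -0.21), and none rose in either. SHQ1, a DKC1 chaperone, was at -0.74 in PC3 and -0.28 in P493-6 (limma adjusted p = 1.28e-17 and 0.00143), and NOLC1 at -0.63 and -0.28 (limma adjusted p = 5.58e-31 and 2.71e-06). NUFIP1, at -0.59 in PC3 (limma adjusted p = 1.64e-12), and TCOF1, at -0.42 in P493-6 (limma adjusted p = 2.94e-10), were the others among the 3 largest changes of this list in their line.

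Ribosomal protein genes, whose mRNAs have TOP starts, mostly rose in all 3 comparisons. Of 77 cytosolic ribosomal protein genes, 62 rose and 3 fell with MYCi975 in PC3, 69 rose and none fell with MYCi975 in P493-6, and 59 rose and 8 fell with tetracycline, with medians of 0.15, 0.23 and 0.22 on the log2 scale. RPL12 rose by 0.38 in PC3 and 0.41 in P493-6 with MYCi975 (limma adjusted p = 6.19e-21 and 1.95e-12), and RPL28 rose by 0.37 with MYCi975 in PC3 and by 0.57 with tetracycline (limma adjusted p = 2.63e-20 and 2.68e-18). RPL37A in PC3 (0.39), RPS2 and RPS18 with MYCi975 in P493-6 (0.37 and 0.36), and RPS27 and RPLP1 with tetracycline (0.91 and 0.58) completed the 3 largest changes per comparison. Other TOP mRNAs, of translation factors and related proteins, counted 13 higher and 3 lower of 17 with MYCi975 in PC3, 13 and 1 in P493-6, and 8 and 8 with tetracycline. Their extremes with tetracycline were NPM1 at -2.13, EIF4B at -0.99 and TPT1 at 0.59 (limma adjusted p = 2.04e-37, 1.61e-25 and 7.35e-18). With MYCi975 in PC3, TPT1 and EIF3F rose by 0.40 and 0.36 whereas HNRNPA1 fell by 0.64, and in P493-6 EEF2, EIF4B and EEF1B2 rose by 0.46, 0.36 and 0.36.

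**Figure D4:**
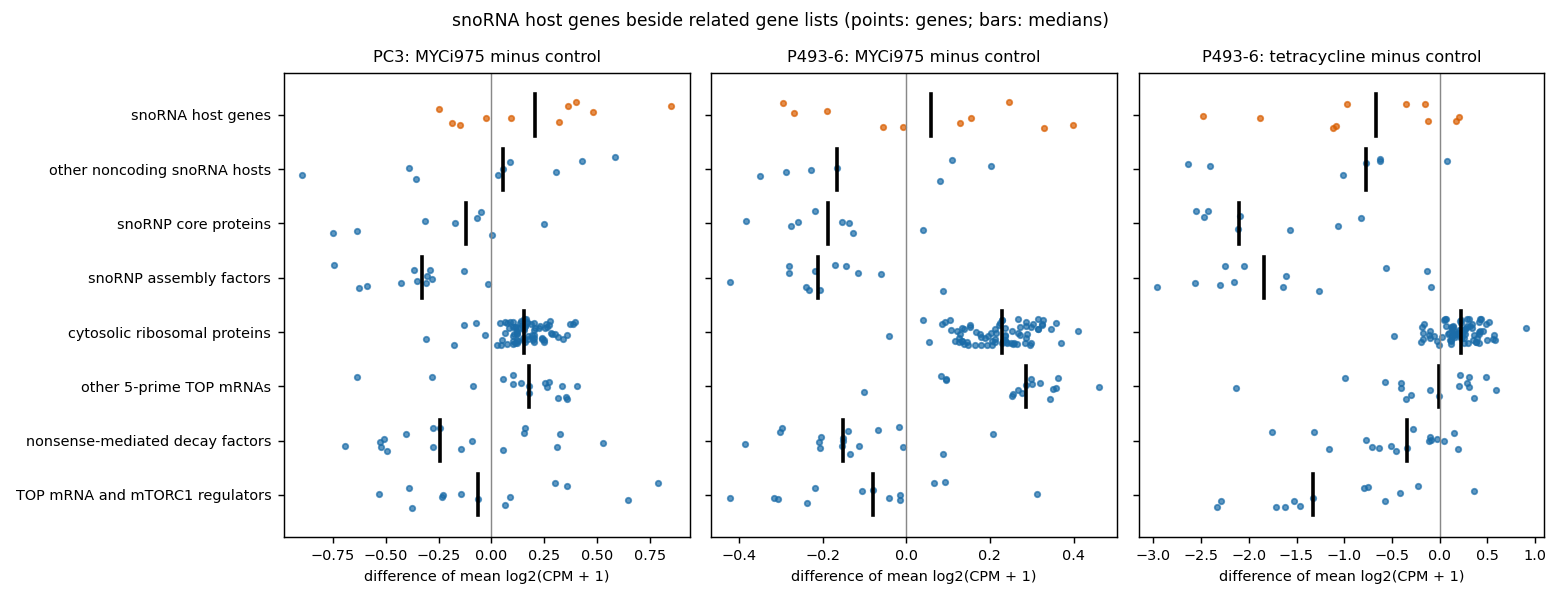
Log2(CPM + 1) changes (horizontal axes, a separate scale in each panel) of the 10 host genes (top row) and of 7 related lists for MYCi975 in PC3, MYCi975 in P493-6 and tetracycline in P493-6, each minus control. Points are genes and black bars medians. With tetracycline the host genes spread from -2.48 to 0.21, the snoRNA particle core proteins have a median of -2.10, and the ribosomal proteins one of 0.22.

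Factors that act on TOP transcripts and on decay of translated noncoding RNA were also read. Of 17 nonsense-mediated decay factors, 10 fell and 5 rose with MYCi975 in PC3, 8 fell and 1 rose with MYCi975 in P493-6, and 11 fell and 1 rose with tetracycline. Their medians were -0.24, -0.15 and -0.34 on the log2 scale, beside -0.00, -0.04 and -0.05 over all genes, and the 12 of 17 called with tetracycline compare with 78.1% called over all genes. EIF4A3, a core of the exon junction complex, was at -0.53, -0.30 and -1.76 in these comparisons (limma adjusted p = 3.36e-24, 2.48e-07 and 4.14e-29), and the helicase DHX34 at -0.69 in PC3 and -1.32 with tetracycline (limma adjusted p = 5.43e-13 and 6.52e-18). NBAS rose by 0.53 in PC3, UPF3B and UPF2 fell by 0.39 and 0.30 with MYCi975 in P493-6, and MAGOH fell by 1.16 with tetracycline. Of 13 regulators of TOP mRNAs or mTORC1, 4 rose and 5 fell with MYCi975 in PC3, 1 rose and 5 fell with MYCi975 in P493-6, and 1 rose and 12 fell with tetracycline. EIF4EBP1, the translation repressor controlled by mTORC1, rose with MYCi975 by 0.79 in PC3 and 0.31 in P493-6 and fell by 2.33 with tetracycline (limma adjusted p = 2.24e-36, 1.91e-06 and 1.39e-28). LARP1, which binds TOP mRNAs, and SSB fell by 1.71 and 2.29 with tetracycline, SSB fell by 0.42 with MYCi975 in P493-6, TIA1 by 0.53 in PC3 and 0.32 in P493-6, and LARP1B rose by 0.64 in PC3.

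Guest snoRNAs were themselves listed for ZFAS1 and SNHG12. SNORD12C, inside ZFAS1, had 1.38, 2.94 and 3.33 CPM with tetracycline, against 5.53, 4.99 and 5.73 CPM in control, from 12 to 61 reads a library. It fell by 0.90 ± 0.19 on the log2 scale (SE, limma adjusted p = 5.23e-05), and SNORD12B, also inside ZFAS1, by 0.39 ± 0.15 (SE, limma adjusted p = 0.0189), whereas ZFAS1 rose. SNORD99, inside SNHG12, had a log2 difference of -0.29 with tetracycline that did not pass (limma adjusted p = 0.161). None of these guests was called with MYCi975 in either line. Of all 82 snoRNAs listed with tetracycline, 24 were called higher and 25 lower. With MYCi975, 18 of 66 were called higher and 0 lower in PC3, and 15 of 87 higher and 4 lower in P493-6. The library preparation was not designed for RNAs this short, and the form of RNA behind these reads was not tested.

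Opposite-strand neighbours overlap several members. ZFAS1 shares 249 bases with ZNFX1, which rose by 1.70 on the log2 scale with tetracycline (limma adjusted p = 1.60e-29), SNHG7 shares 2685 bases with FAM69B, which fell by 1.77 (limma adjusted p = 5.39e-15), and GAS5 shares 801 bases with ZBTB37, which rose by 1.23 with tetracycline (limma adjusted p = 2.56e-16) and by 0.42 with MYCi975 in PC3 (limma adjusted p = 0.00572). The libraries are labelled strand-specific, but the strand setting of the read counting is not given in the sources used here, so the part of these neighbours' reads in the host values was not tested.

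The authors' deposited table marks genes at their adjusted p below 0.01, a stricter threshold than the 0.05 used here. The authors' deposited table marks 4 members as higher and none as lower with MYCi975 in PC3, leaving out SNHG5, 4 as higher and 1 as lower with MYCi975 in P493-6, leaving out SNHG15, and 2 as higher and 5 as lower with tetracycline, leaving out GAS5 and SNHG5. The adjusted p in the authors' deposited table is 0.0238 for SNHG5 in PC3 and 0.0239 for SNHG15 with MYCi975 in P493-6, both below 0.05, and 0.396 for GAS5 and 0.0546 for SNHG5 with tetracycline. For SNHG16 with tetracycline the authors' deposited table gives a log2 fold change of -2.44, and for GAS5 in PC3 the authors' deposited table gives 0.90. With tetracycline the authors' deposited table gives -0.07 for GAS5 and -0.28 for SNHG5. The main fit here, without scaling between libraries, gave -0.15 and -0.35, and the fit with TMM scaling gave -0.07 and -0.28. The threshold is thus not the only difference, and the part of scaling in it was not tested.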

How the data were processed

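RNA of 15 libraries was read with a strand-specific, probe-capture kit, per the labels' protocols. STAR, HTSeq and edgeR, with the build hg38, are named in the submitters' processing notes, without roles or versions. The authors deposited CPM values per gene and library in 3 tables, 1 per comparison with control. Beside them, the deposited tables give log2 fold changes, p-values and a likelihood ratio score, per the file headers. The CPM values were whole multiples of 1 read (100% of values within 0.001 reads), so the reads of each library were recovered, and no scaling between libraries had been applied. No label or header states the annotation or the strand setting of counting.

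For each comparison limma 3.58.1 (R 4.3.3, trend and robust options) was fitted on log2(CPM + 1) over all genes listed, with Benjamini-Hochberg adjustment. Fold changes on this scale understate those of low genes. Alternatives were pseudocounts of 0.1 and 5 CPM, a mean of at least 5 CPM, TMM scaling, edgeR 4.0.16 (quasi-likelihood) on the recovered reads, replicate number as a block, all 9 P493-6 libraries, and leaving out each library. The fits of the comparisons with control were also run on simulated counts, and the outcome is not reported here. The simulated rises and falls were equal in number, so that run cannot test the scaling between libraries. The members and lists were chosen with earlier results of these data known. Of each related list, the up to 3 called genes with the largest change per comparison with control are named, and for the 4 members of highest mean CPM the 3 nearest genes. Start sequences come from RefSeq and GENCODE v29, both on the files' genome build.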

Additional observations from a re-analysis of the deposited data

Results flagged for a closer look

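The change of GAS5 with MYCi975 differed between the cell lines by the test of the difference itself. The log2 change was 0.85 in PC3 and 0.15 in P493-6, and the PC3 change exceeded the P493-6 change by 0.70 (limma adjusted p = 3.18e-08), in a set of 11240 genes of which 36.3% had a change that differed between the lines. All 3 treated PC3 libraries were above all 3 PC3 control libraries, and the P493-6 groups overlapped. The MYCi975 dose was 8 µM in PC3 and 6 µM in P493-6, so line and dose cannot be told apart.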

How the results depend on the processing

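Of 710 refits of single host genes, 646 kept their direction and their side of the threshold, 33 lost a call, 17 gained 1 and 14 changed sign, each of the last in a difference that was not called. They were SNHG5 with MYCi975 in P493-6 (0.033 with TMM scaling, 0.035 by edgeR, and -0.059 to 0.050 when 1 library was left out) and, between the lines, SNHG16 (-0.00099 with TMM scaling, -0.0031 by edgeR, and -0.00072 to 0.076 when 1 library was left out). The others occurred when 1 library was left out, over ranges of -0.045 to 0.19 for SNHG7 with MYCi975 in PC3, -0.19 to 0.027 for SNHG6 with MYCi975 against tetracycline, and, between the lines, -0.15 to 0.028 for SNHG12 and -0.013 to 0.26 for SNHG15. The cause of these changes was not tested.

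With TMM scaling or edgeR, 1 host gene was lower with MYCi975 than with tetracycline, in place of 0, and 7 were higher, in place of 9. Between the lines, 1 was called smaller in PC3 with a pseudocount of 5 CPM or by edgeR, in place of 0. With tetracycline, 5 were lower with TMM scaling or edgeR. Leaving out 1 library gave, in PC3, 4 to 5 higher and 0 to 2 lower, in P493-6 with MYCi975 2 to 5 higher and 1 to 3 lower, with tetracycline 1 to 2 higher and 5 to 8 lower, for MYCi975 against tetracycline 7 to 9 higher and 0 to 1 lower, and between the lines 1 to 2 larger and 0 to 1 smaller in PC3. SNHG5 had as few as 59 reads in a library, which limits its precision.

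No pairing of libraries by replicate number was seen: deviations of same-numbered libraries correlated between -0.07 and 0.04. With 3 libraries a group this cannot exclude a pairing. With the replicate block, 8220 genes were called in PC3, 3274 with MYCi975 and 10655 with tetracycline in P493-6, in place of 8137, 3713 and 10702. Among host genes, GAS5 with tetracycline lost its call under the block (adjusted p = 0.0521), so that 6 were lower in place of 7.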
